A study of Mus musculus with 70 samples.

Results

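The 48 cell cycle genes described here were taken from a fixed list of mouse symbols, each matched to 1 Ensembl gene ID of the count table, and they made up 48 of the 13173 protein-coding genes that were tested. They fall into 18 genes of the G1 to S transition and DNA replication and 30 genes of mitosis. Their RNA was followed in regulatory T cells (Tregs) of blood and spleen and of 4 nonlymphoid tissues, the lungs, the visceral fat of the abdomen (visceral adipose tissue, VAT), the colon and the skin of the back. In each of the 6 tissues ST2+ and ST2- Tregs with high CD44 were sorted, and in spleen and lungs another population was added, ST2- Tregs with low CD44 that kept CD62L. This gave 14 groups.

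All groups came from the same 5 male Foxp3-YFP-cre mice, which carry the allele Foxp3tm4(YFP/icre)Ayr on a B6.129(Cg) background, aged 16.6 to 18.6 weeks, so no group was untouched by the Foxp3-driven YFP-cre allele, and YFP was the marker by which Tregs were gated. Sorted cells were live, CD45.2+ CD4+ YFP+ and negative for CD8 and CD11b, among other markers. Lungs, VAT, colon and skin were digested with collagenase, skin for the longest time, while blood and spleen were not. Between digested and undigested tissues, digestion and tissue therefore cannot be told apart. Spleen and lung suspensions were first enriched for CD4 T cells on magnetic beads, and 220 cells were aimed for in each library. ST2 is the receptor for interleukin 33. CD44hi Tregs are often called effector Tregs (eTregs) and CD44lo CD62L+ Tregs central Tregs (cTregs). A group is therefore a small pool of cells from 1 organ of each mouse. The list says nothing of single cells: in such pools, fewer cycling cells and less RNA per cycling cell cannot be told apart.

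A cell that enters the cell cycle first switches on the E2F programme, which supplies cyclin E, the MCM helicase that opens the DNA, the sliding clamp PCNA and the enzymes that make deoxynucleotides. Later, in G2 and mitosis, a second wave brings cyclin A and B with the kinase CDK1, the aurora and polo kinases, the kinetochore, the spindle motors and the checkpoint that waits for every chromosome to attach. Most mitotic transcripts are scarce in resting cells, whereas MCM and PCNA transcripts are also found in cells that are not dividing. Ki-67 protein, the product of Mki67, is the usual stain for cycling T cells, and the study stained Tregs of these tissues for it. It reported Ki-67 in a larger share of ST2+ than of ST2- Tregs in blood, spleen and lungs, and comparable shares in VAT, colon and skin. Among all populations stained, it found the largest Ki-67 share in ST2+ Tregs of blood, and low shares in VAT, colon and skin. Its stained ST2- Tregs were not described as limited to CD44hi cells. A share of stained cells and an RNA level of a pool are unlike measures.

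Of 70 libraries, 67 held over 1000000 counts and were kept, with totals from 1304560 to 2759926 and a median of 2039002. Blood ST2+ Tregs kept 4 libraries, colon ST2+ Tregs kept 3 and the other groups kept 5. Foxp3 was read in every kept library, at 106 to 412 CPM (counts per 1000000 on scaled library sizes), and Il1rl1, which encodes ST2, lay at 226 to 1594 CPM in ST2+ and at 0 to 194 CPM in ST2- libraries. Fewer cells than aimed for went into 7 libraries, among them 4 of VAT ST2- Tregs with 93 to 192 cells. The others were of blood: the ST2+ libraries of mouse 2 (202 cells) and mouse 3 (55 cells) and the ST2- library of mouse 1 (166 cells). Transcripts of other cells were present. Summed over 5 erythroid genes they reached 380 and 417 CPM in 2 blood ST2+ libraries and 474 and 578 CPM in 2 blood ST2- libraries, those of mice 4 and 5, and no more than 54.4 CPM in any other library. Summed over 7 myeloid genes they reached 1081 to 1257 CPM in colon ST2+ Tregs and at most 211 CPM elsewhere.

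The DNA just upstream of these genes is shown for 4 of the mitotic ones, because the letters of promoter elements known for mitotic genes can be seen there. Sequences are from RefSeq (GRCm38.p6), 250 bases ending at the base before the transcript start, on the minus strand of the genome and written in the direction of transcription. Capitals mark TTTGAA or TTTAAA, the letters of the cell cycle genes homology region (CHR), CCAAT, the letters bound by NF-Y, and the E2F letters TTTGGCGC, TTTCGCGC and TTCCCGCC, each read on both strands.
Mki67, chr7:135716380-135716629: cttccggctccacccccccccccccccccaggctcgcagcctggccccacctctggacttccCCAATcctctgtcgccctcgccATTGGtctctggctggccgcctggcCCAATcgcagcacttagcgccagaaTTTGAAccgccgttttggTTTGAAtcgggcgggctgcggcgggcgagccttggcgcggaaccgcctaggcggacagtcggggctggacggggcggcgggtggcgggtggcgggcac
Top2a, chr11:99024190-99024439: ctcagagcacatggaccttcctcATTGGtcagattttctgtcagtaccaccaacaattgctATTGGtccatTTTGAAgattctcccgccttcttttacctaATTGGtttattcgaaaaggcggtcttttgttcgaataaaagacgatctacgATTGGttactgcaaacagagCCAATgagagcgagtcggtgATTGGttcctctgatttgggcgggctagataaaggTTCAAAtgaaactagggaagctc
Cdk1, chr10:69352913-69353162: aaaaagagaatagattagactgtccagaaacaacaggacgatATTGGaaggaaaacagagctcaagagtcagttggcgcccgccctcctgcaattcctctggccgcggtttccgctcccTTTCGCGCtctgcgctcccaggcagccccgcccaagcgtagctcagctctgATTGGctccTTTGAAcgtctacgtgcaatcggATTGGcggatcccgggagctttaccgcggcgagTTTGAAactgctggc
Ccnb1, chr13:100786487-100786736: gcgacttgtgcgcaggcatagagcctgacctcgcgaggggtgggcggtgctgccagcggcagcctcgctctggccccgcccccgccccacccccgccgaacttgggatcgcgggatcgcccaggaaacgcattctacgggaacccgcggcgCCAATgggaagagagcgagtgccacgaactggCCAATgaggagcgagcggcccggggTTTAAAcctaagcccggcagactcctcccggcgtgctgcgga
The 4 were picked among members that hold such letters. All 4 hold CHR and CCAAT letters, and Cdk1 alone among them also holds E2F letters. Birc5, another mitosis member, holds CHR letters but no CCAAT letters in its 250 bases. In windows of 300 bases, 41 of the 48 members had a promoter in the table. CHR letters stood in 88% of the mitosis members and 43.8% of the replication members, against 30.6% of all 27025 genes with a window. CCAAT stood in 80% and 62.5%, against 41.1%. E2F letters stood in 8% of the mitosis members and 37.5% of the replication members, against 3.39% of all genes. A match of letters is a description of the sequence and not of a bound factor. Of the members without a window, Ccna2, Stmn1, Aurkb, Kif20a and Tpx2 belong to the mitosis members and Mcm4 and Ccne2 to the replication members.

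Summed over all 48 genes, the cell cycle transcripts had their lowest medians in CD44lo CD62L+ Tregs, at 1256, 1209.9, 1408, 1248 and 1263 CPM in the 5 spleen libraries and 1408, 1519, 1298, 1376 and 1321 CPM in the 5 lung libraries. Among CD44hi Tregs the medians were highest in the lung groups and VAT ST2- Tregs, with 4345, 5009, 4187, 2589 and 5109 CPM in lung ST2- Tregs and 4792, 4505, 3178, 3019.6 and 3692 CPM in VAT ST2- Tregs. The lowest CD44hi median was that of blood ST2- Tregs, at 1333, 1552, 1419.8, 1649 and 3029 CPM. All of these are given for mice 1 to 5 in order. With the 12 CD44hi groups ordered by their medians, the ranges of all neighbours overlapped.

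**Figure D1:**
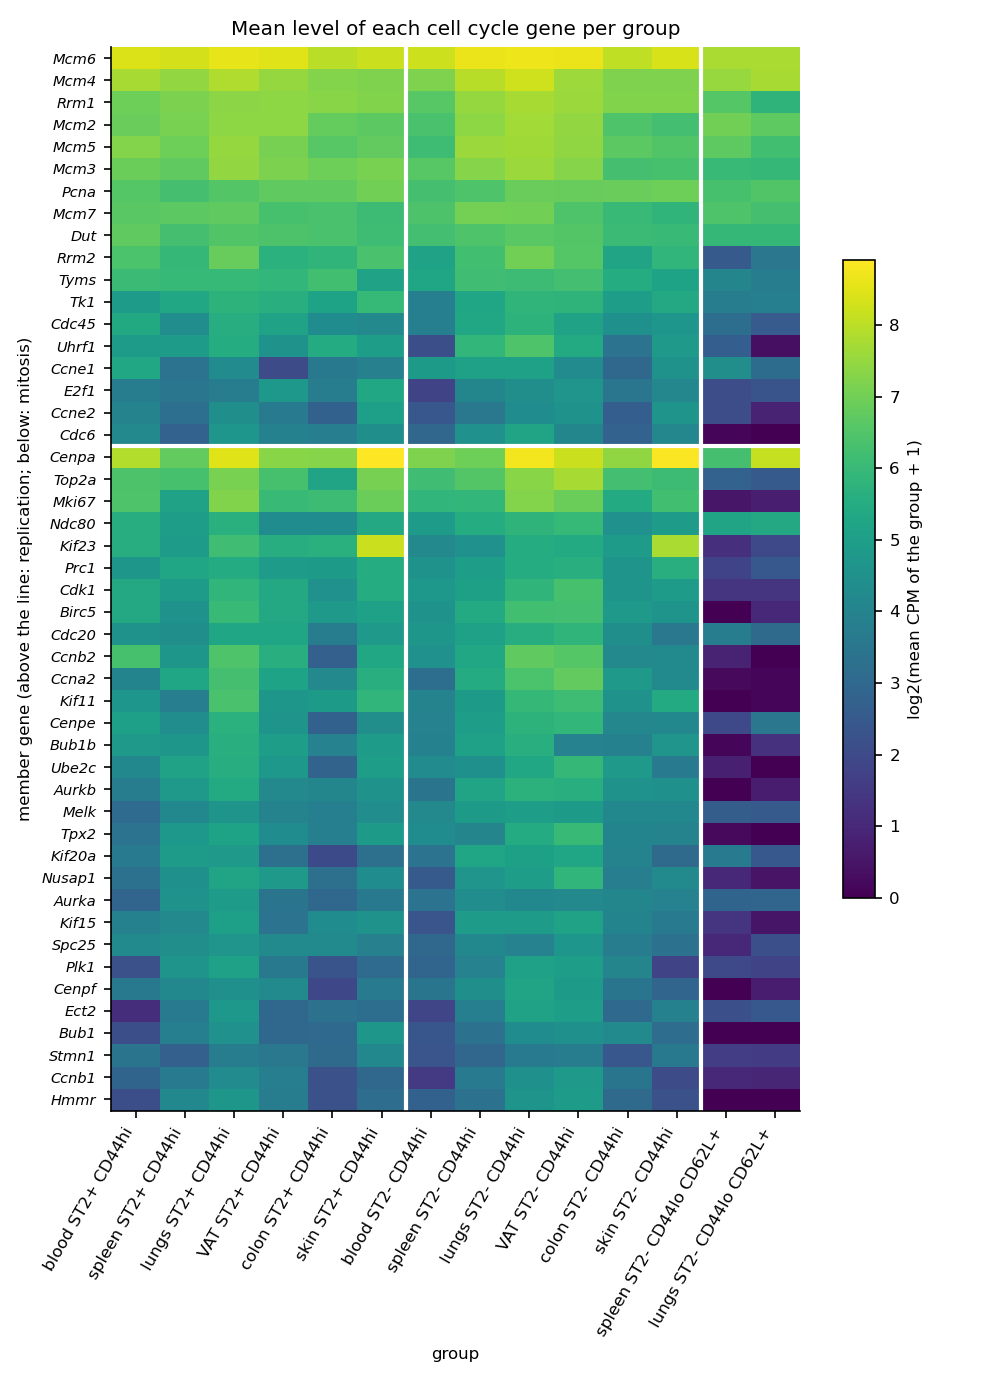
Mean level of each of the 48 genes (rows) in each of the 14 groups (columns), as log2 of the group's mean CPM plus 1, with replication genes above the line and mitosis genes below it. The columns of the 2 CD44lo CD62L+ groups are dark (low) over most mitosis genes and stay bright (high) over the MCM genes and Pcna, and Kif23 and Cenpa are brightest in skin.

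The replication and the mitosis genes did not share one pattern. In CD44lo CD62L+ Tregs the 18 replication genes still summed to 1024 to 1204 CPM in spleen and 883 to 1112 CPM in lungs, which overlaps the 1042 to 1271 CPM of blood ST2- CD44hi Tregs. The 30 mitosis genes summed to only 148 to 204 CPM in spleen and 276 to 501 CPM in lungs. Much of the lung value was Cenpa: without Cenpa and Kif23, a pair set aside after their values were seen, the other 28 mitosis genes summed to 91.4 to 114 CPM in spleen and 72.7 to 131 CPM in lungs. The same 28 genes summed to 319.9 to 1294 CPM in spleen and 548 to 2450.2 CPM in lung ST2- CD44hi Tregs.

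**Figure D2:**
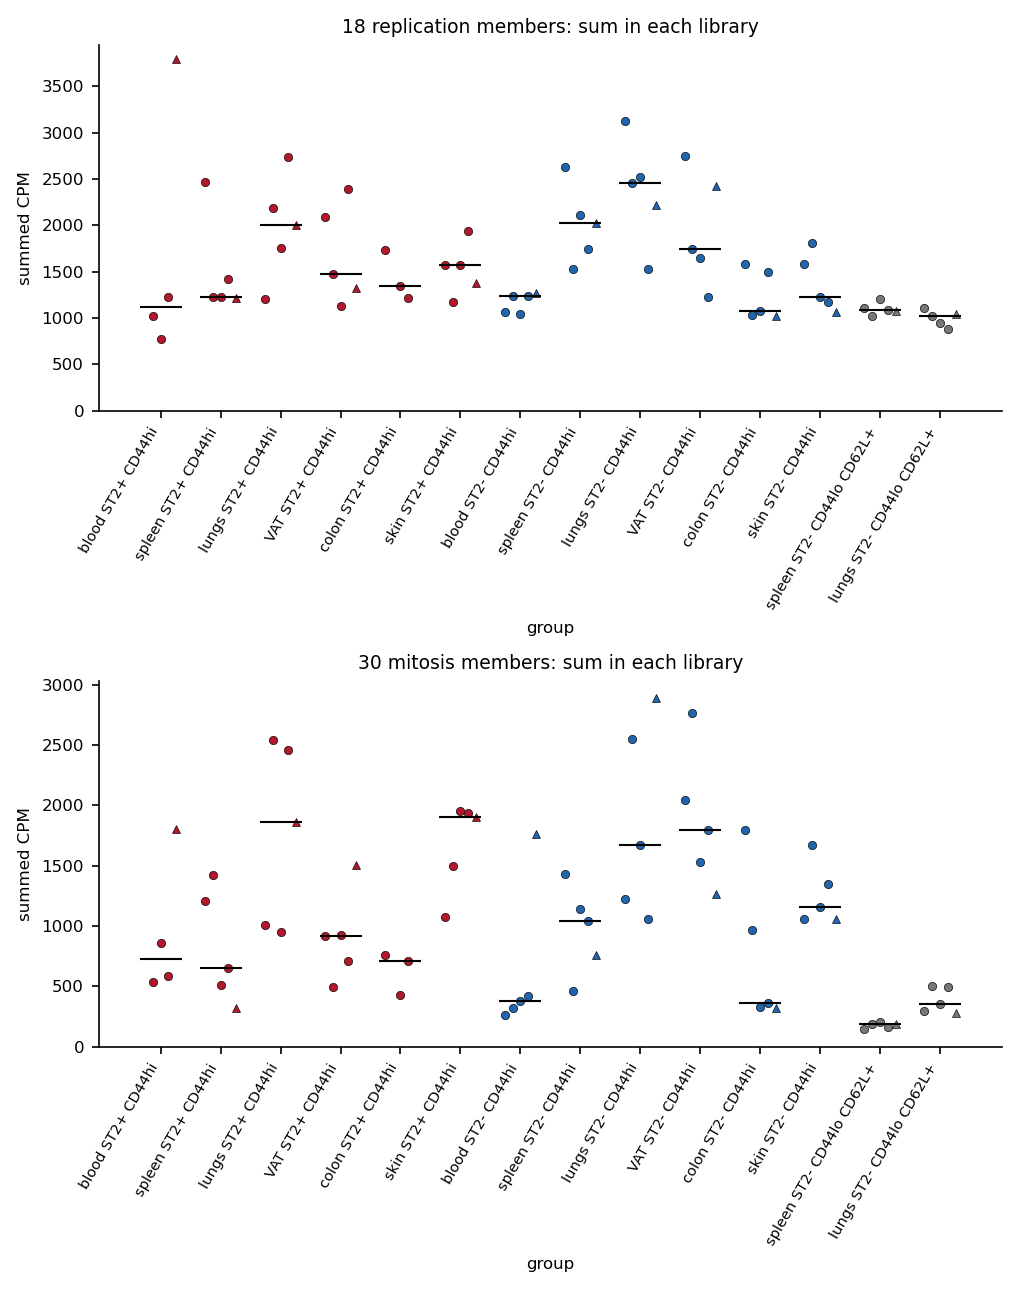
Summed CPM of the 18 replication genes and of the 30 mitosis genes in every kept library of the 14 groups, on linear axes (triangles, mouse 5; circles, the other mice; bars, group medians; red ST2+, blue ST2- CD44hi, grey CD44lo CD62L+). The mitosis sum of the CD44lo libraries lies between 148 and 501 CPM, and the blood libraries of mouse 5 lie above those of the other mice.

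Whether cell cycle transcripts separate effector from central Tregs was asked by comparing ST2- CD44hi with CD44lo CD62L+ Tregs of the same organ, both sorted from the same 5 mice. In spleen 21 of the 48 genes were higher in CD44hi Tregs and none was lower, where 4.33% of all tested genes were higher and 0.653% lower. In lungs 31 of 48 were higher and none lower, where 4.81% of all tested genes were higher and 0.736% lower. All 48 fitted fold changes were positive in both organs, so at an unadjusted p under 0.05 the count of lower members was also 0. A gene was called at an adjusted p of at most 0.05 (edgeR quasi-likelihood test, Benjamini-Hochberg over all 13173 genes) and a fold change of at least 1.5.

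The median log2 fold change over the 48 genes was 2.92 in spleen and 3.33 in lungs, against 0 over all tested genes in each organ, and it was the same with the genes at 0 counts set to their lower bound. Of the mitosis genes 17 of 30 were called in spleen and 20 of 30 in lungs. Of the replication genes 4 of 18 were called in spleen and 11 of 18 in lungs. The CD44hi library exceeded the CD44lo library of the same mouse in 5 of 5 mice for 39 members in spleen and 38 in lungs, while 11.2% of all tested genes did so in spleen and 10.3% in lungs. Calls were shared by both organs for 20 members, and 16 members were called in neither. Whether the difference itself differed between the organs was not tested. The spleen and lung comparisons share the mice but no library.

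**Figure D3:**
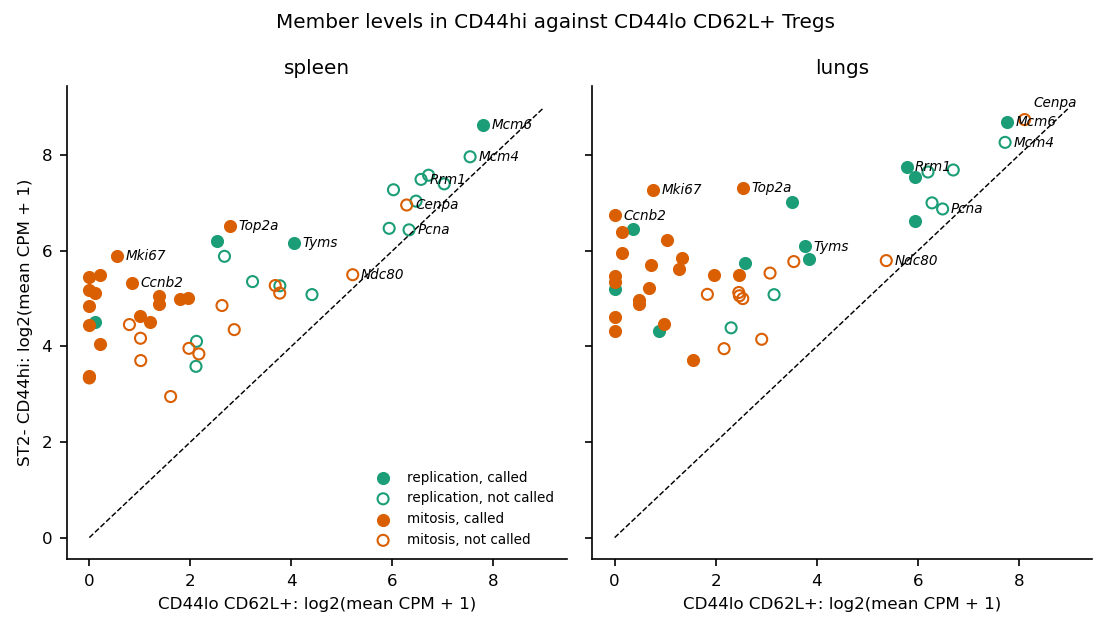
Each of the 48 genes by its level in CD44lo CD62L+ (x axis) and ST2- CD44hi Tregs (y axis), as log2 of the mean CPM plus 1, in spleen and in lungs (green replication, orange mitosis, filled where called; the dashed line marks equal levels). All points lie above the line, the called mitosis genes at the left and the MCM genes close to the line at the upper right.

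Mki67 (ENSMUSG00000031004, chr7:135689784-135716361, minus strand) was close to absent from CD44lo CD62L+ Tregs. In spleen it was read at 0.363, 0, 0, 0 and 1.96 CPM in mice 1 to 5, against 97.2, 28.7, 54.6, 78.4 and 32.8 CPM in ST2- CD44hi Tregs of the same mice. In lungs the values were 0, 3, 0.467, 0 and 0 CPM against 95.7, 235, 132, 75.9 and 228 CPM. Every CD44hi library stood far above every CD44lo library in both organs, and the groups did not overlap. The log2 fold change was 6.75 (SE 0.94, edgeR adjusted p = 2.63e-07, 5 mice) in spleen and 7.79 (SE 0.93, adjusted p = 4.32e-09) in lungs.

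Top2a, the topoisomerase that untangles sister chromatids, behaved alike. It was read at 7.61, 2.8, 15, 1.55 and 2.74 CPM in spleen CD44lo and 130.2, 38.3, 88.8, 82.5 and 113 CPM in spleen CD44hi Tregs. In lungs it was read at 7.71, 7.5, 0, 5.99 and 2.78 CPM and 61.8, 212, 101, 83.9 and 329.8 CPM. No CD44lo library reached the lowest CD44hi library. The log2 fold change was 3.88 (SE 0.68, edgeR adjusted p = 2.9e-05) in spleen and 5.02 (SE 0.72, adjusted p = 3.9e-07) in lungs.

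The mitotic kinase and its cyclins followed. Cdk1, the kinase that drives entry into mitosis, was read at 0, 0, 4.99, 3.1 and 0 CPM in spleen CD44lo and 64.5, 6.66, 44.4, 17.3 and 28.7 CPM in spleen CD44hi Tregs (log2 fold change 4.31, SE 1.04, adjusted p = 0.00399, edgeR). In lungs Cdk1 was read at 0, 5.5, 0.467, 1.63 and 0 and 58.6, 101, 16.1, 27.6 and 78.5 CPM (log2 fold change 5.25, SE 1.09, adjusted p = 0.000503). Mouse 2 gave the lowest CD44hi value of Cdk1 in spleen and mouse 3 the lowest in lungs, and in neither organ did the groups overlap.

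Ccnb2, a cyclin B partner of CDK1, had 0 counts in all 5 lung CD44lo libraries and 118, 99.9, 137, 57.4 and 117 CPM in lung CD44hi Tregs, at least 396-fold higher against a floor of 3 counts over the group (edgeR adjusted p = 8.75e-05). In spleen it was read at 0, 2.8, 0.384, 0 and 0.783 and 47.7, 40.4, 59.7, 36.7 and 12.2 CPM (log2 fold change 5.50, SE 1.39, adjusted p = 0.00695). Ccnb1, the other B cyclin, was scarcer, at 0, 2, 2.8, 0 and 0 CPM in lung CD44lo and 9.76, 35.5, 19.7, 7.97 and 33.2 CPM in lung CD44hi Tregs, and was called in lungs (log2 fold change 4.41, SE 1.42, adjusted p = 0.0476). In spleen Ccnb1 was not called, with 0, 3.2, 1.92, 0 and 0 against 9.53, 7.07, 28.8, 14.4 and 0.349 CPM (adjusted p = 0.143), and mouse 5 had next to none in either group.

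Ccna2, cyclin A2 of S and G2 phase, had 2 counts over the 5 spleen CD44lo libraries and 1 count over the 5 lung CD44lo libraries. In CD44hi Tregs it was read at 104, 0, 47, 40.03 and 30.1 CPM in spleen and 58.6, 113, 82.5, 22.8 and 137 CPM in lungs. The ratio of scaled counts was 279 (95% interval of counting error 77.0 to 2311) in spleen and 952 (170.4 to 37655) in lungs, and both were called (edgeR adjusted p = 0.00338 and 0.00083). Mouse 2 had no Ccna2 count in spleen CD44hi Tregs, so that the spleen groups overlapped there.

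Survivin and aurora B are partners in the chromosomal passenger complex, which corrects faulty attachments of chromosomes. Birc5, which encodes survivin, had 0 counts in all 5 spleen CD44lo libraries against 74.4, 25, 39.3, 38.8 and 36.7 CPM in CD44hi Tregs, at least 176-fold higher (edgeR adjusted p = 0.000181). In lungs Birc5 was read at 3.67, 0, 0, 0 and 1.59 and 75.5, 96, 86.1, 26.6 and 85.1 CPM (log2 fold change 5.91, SE 1.27, adjusted p = 0.001). Aurkb had 0 counts in spleen CD44lo Tregs and a mean of 35.5 CPM in CD44hi Tregs, at least 146-fold higher (adjusted p = 0.00124). In lungs its means were 0.635 and 51.4 CPM (adjusted p = 0.00605). Aurka, which acts at the spindle poles and not in this complex, was not called in either organ (adjusted p = 0.573 and 0.589).

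Among the spindle motors and their partners, Kif11, which pushes the spindle poles apart, had 0 counts in spleen CD44lo Tregs and was at least 115-fold higher in CD44hi Tregs (edgeR adjusted p = 0.000143). In lungs 1 count stood against a mean of 60.8 CPM. Kif15, a second spindle motor, was called in both organs (adjusted p = 0.00537 in spleen and 0.000179 in lungs). Tpx2, a spindle assembly factor, had 0 counts in lung CD44lo Tregs and was at least 161-fold higher in CD44hi Tregs (adjusted p = 0.00147). Kif23, the motor of the central spindle in cytokinesis, was called in both organs too, at a mean of 1.31 against 21.7 CPM in spleen and 2.93 against 44.3 CPM in lungs. Kif20a and Ect2, which also serve cytokinesis, were not called in either.

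The kinetochore and its checkpoint split. Bub1, a checkpoint kinase, had 0 counts in both CD44lo groups and was at least 38.5-fold higher in spleen and at least 71.4-fold higher in lung CD44hi Tregs (edgeR adjusted p = 0.0422 and 0.0184). Bub1b, its partner in the checkpoint, and Cenpf, a kinetochore protein, were called in both organs too, and the kinetochore motor Cenpe in spleen alone (adjusted p = 0.0249 and 0.138). Ndc80 and Cenpa were already present in CD44lo Tregs and were not called. Ndc80 had means of 36.1 and 44.3 CPM in spleen CD44lo and CD44hi Tregs and 40.6 and 54.6 CPM in lungs (adjusted p = 0.922 and 0.695). Nusap1 and Prc1, which bundle spindle microtubules, were called in both organs, and Hmmr and the ubiquitin-conjugating enzyme Ube2c in lungs. Spc25, Melk, Plk1 and Cdc20, the activator of the anaphase-promoting complex, were called in neither.

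Stmn1, the microtubule destabiliser stathmin, was read at 4.04, 0.5, 2.34, 1.09 and 1.59 CPM in lung CD44lo and 14.3, 13.8, 14.5, 7.97 and 10.5 CPM in lung CD44hi Tregs and was called there (log2 fold change 2.62, SE 0.67, adjusted p = 0.00774, edgeR). In spleen, at 2.54, 2, 0.768, 1.03 and 3.92 and 9.53, 4.99, 6.77, 3.3 and 9.09 CPM, it was not called (adjusted p = 0.138). In lungs every CD44hi library was above every CD44lo library, and in spleen the groups overlapped.

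Replication genes differed among themselves. Rrm2 and Tyms, which serve the supply of deoxynucleotides, were higher in CD44hi Tregs of both organs. Rrm2, the small subunit of ribonucleotide reductase, was read at 10.2, 0, 8.44, 0 and 5.09 against 171, 15.8, 63, 56.5 and 57.3 CPM in spleen and 22, 10.5, 6.54, 6.53 and 6.75 against 141, 166, 126, 70.1 and 146 CPM in lungs. Tyms, thymidylate synthase, was read at 7.98, 19.6, 15, 15 and 20.8 against 97.5, 38.3, 55.8, 77.2 and 86.3 CPM in spleen and 11.4, 18.5, 13.6, 7.62 and 12.3 against 69, 78.2, 54.3, 61.1 and 73.7 CPM in lungs. For both genes and in both organs no CD44lo library reached a CD44hi library. The log2 fold changes in spleen and lungs were 3.88 and 3.60 for Rrm2 (edgeR adjusted p = 0.00338 and 0.00492) and 2.18 and 2.4 for Tyms (adjusted p = 8.84e-05 and 2.13e-05).

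The sliding clamp and most of the helicase were not called. Pcna, the sliding clamp of the DNA polymerases, was read at 71.8, 88.9, 71.4, 87.9 and 77.2 CPM in spleen CD44lo and 87.6, 77.4, 80.8, 91.6 and 91.6 CPM in spleen CD44hi Tregs. In lungs it was read at 85.9, 91.1, 79.9, 121 and 67.5 and 135, 134, 104, 124 and 84.6 CPM. The groups overlapped in both organs and Pcna was not called in either, with log2 fold changes of 0.11 (SE 0.18, edgeR adjusted p = 0.942) and 0.39 (SE 0.18, adjusted p = 0.242).

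The 6 MCM subunits form 1 helicase. Mcm2 was read at 160.2, 93.7, 171, 90.5 and 131 against 202, 177, 161, 154 and 147 CPM in spleen, and Mcm5 at 89.2, 118, 123, 89.4 and 101 against 271, 135, 256, 98.2 and 194 CPM. In lungs Mcm2 was read at 85.9, 133, 104, 65.9 and 128 against 336, 176, 235, 107 and 175 CPM and Mcm5 at 91.1, 71.5, 44.9, 59.3 and 96.5 against 270.1, 254, 187, 82.9 and 205 CPM. Both subunits overlapped between the groups in both organs and neither was called. Mcm6 was the subunit called in both organs, at a mean of 221 ± 33.6 against 397 ± 35.2 CPM in spleen (SD, n = 5, log2 fold change 0.85, edgeR adjusted p = 0.00223) and 218 ± 50.2 against 412 ± 51 CPM in lungs (log2 fold change 0.92, adjusted p = 0.000767). Mcm3 was called in lungs and not in spleen. Mcm4 and Mcm7 were called in neither.

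The remaining replication genes were the regulators and loading factors. Cdc6, which loads the helicase, was called in both organs and had 1 count in the spleen CD44lo group and 0 in the lung CD44lo group, where it was at least 134-fold higher in CD44hi Tregs (edgeR adjusted p = 0.00353). Uhrf1, which copies DNA methylation at the fork, was called in lungs, where 3 counts stood against a mean of 86.4 CPM, and not in spleen (adjusted p = 0.0605). Cdc45, Tk1, Dut, Rrm1 and Ccne2 were called in lungs alone. E2f1 and Ccne1 were called in neither organ.

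How many of the 48 genes were read at all shows the contrast in another form, from the same counts. A count of at least 1 was found for 27 to 37 members in spleen CD44lo libraries and 28 to 36 in lung CD44lo libraries, and for 46 to 48 and 43 to 48 members in the ST2- CD44hi libraries of the 2 organs. Over all gene IDs, 13985 to 15052 were read in spleen CD44lo and 14405 to 15757 in spleen ST2- CD44hi libraries. In lungs the ranges were 13337 to 14888 and 13160 to 15219. A group at 0 counts is limited by depth and by 220 cells, so a 0 here is a level under 3 counts over 5 libraries. Ms4a1 of B cells was at 0 counts in both spleen groups and both lung groups, while the sum over the B cell genes was 71.5 to 109 CPM in spleen CD44hi and 30.5 to 44.5 CPM in spleen CD44lo Tregs, and its part in the result was not tested.

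Other cell cycle genes, taken from lists made beside the members, moved the same way in these comparisons. Of 57 further mitosis genes, 16 were higher in CD44hi Tregs of the spleen and 30 in the lungs, and none was lower. Of 49 further replication genes, 9 were higher in spleen and 8 in lungs, and none was lower. Of all tested genes, 4.33% were higher and 0.653% lower in spleen, and 4.81% higher and 0.736% lower in lungs. These lists were chosen with earlier results of these data known, so they are no independent support. Of 16 cyclins and kinases of G1 none was called in either organ (edgeR, 1 at an unadjusted p under 0.05 in each). Racgap1, which works with KIF23 at the division site, stood at a mean of 8.37 CPM in CD44lo and 80.8 CPM in CD44hi Tregs of the spleen (log2 fold change 3.27, SE 0.54, edgeR adjusted p = 9.98e-06) and at 11.4 and 155 CPM in lungs (log2 fold change 3.76, SE 0.54, adjusted p = 4.31e-07).

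Whether ST2+ Tregs carry more or fewer cell cycle transcripts than ST2- Tregs was asked within each tissue among CD44hi cells. No member was called in blood, spleen, lungs, colon or skin by edgeR, DESeq2 or limma. Of all tested genes, 4.13% were called for blood, 0.357% for spleen, 0.789% for lungs, 0.0683% for colon and 0.22% for skin. At an unadjusted p under 0.05, 8 members (16.7%) were counted in blood, where 18.8% of all tested genes were, and 0 in each of spleen, lungs, colon and skin. The median log2 fold change (ST2+ over ST2-) of the 48 genes was 0.62 in blood (0.22 without the 2 blood libraries of mouse 5, a choice made after seeing the data), -0.30 in spleen, -0.15 in lungs, -0.01 in colon and 0.43 in skin. Over all tested genes it was 0 in blood, spleen and lungs, 0.03 in colon and -0.0036 in skin.

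Mki67 shows how wide the spread within a group was. In blood it was read at 79.9, 59.7, 60.4 and 147 CPM in the ST2+ libraries of mice 2 to 5 and 62.6, 0, 39.5, 32.9 and 153 CPM in the ST2- libraries of mice 1 to 5. In spleen the values were 17.5, 61.5, 35, 26.9 and 28.7 against the ST2- values given above, and in lungs 112, 193, 111, 172 and 156 CPM. The ranges of the 2 populations overlapped in all 3 tissues, with log2 fold changes of 0.59 (SE 0.63, edgeR adjusted p = 0.686), -0.79 (SE 0.61) and -0.04 (SE 0.59). In colon Mki67 was read at 108, 34.6 and 61.7 CPM in ST2+ (mice 1, 3 and 4) and 106, 31.6, 16.9, 37.1 and 23.1 CPM in ST2- Tregs. In skin it was read at 34.9, 91, 173, 133 and 161 and 59.5, 159, 40.7, 78.5 and 32.8 CPM. ST2+ exceeded ST2- Tregs in 3 of 3 mice in colon and in 3 of 5 in skin, and neither difference passed the test (log2 fold change 0.67, SE 0.69, and 0.68, SE 0.60).

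In VAT 2 of the 48 genes, Ndc80 and Cenpa, were lower in ST2+ Tregs, where 3.2% of all tested genes were called and 1.92% were lower. A count of 2 is too few to set the members apart from all tested genes by calls. The median log2 fold change of the 48 genes was -0.87 and 45 of them were negative, against a median of -0.01 over all genes. Ndc80 (chr17:71496100-71526857), which ties the kinetochore to microtubules, was read at 18.7, 16.8, 21.3, 10.03 and 28.4 CPM in ST2+ and 42.3, 119, 69.7, 29.7 and 44.1 CPM in ST2- Tregs. The groups did not overlap and ST2+ was lower in 5 of 5 mice (log2 fold change -1.68, SE 0.44, adjusted p = 0.018, edgeR). Cenpa (chr5:30666777-30674830), the histone variant that marks centromeres, was read at 229.9, 192, 86.9, 178 and 118 and 247, 404, 334, 282 and 196 CPM, lower in ST2+ in 5 of 5 mice though the ranges overlapped (log2 fold change -0.86, SE 0.22, adjusted p = 0.0166). Without mouse 2 the Ndc80 log2 fold change was -1.24 (edgeR adjusted p = 0.185), and the call was also lost without mouse 3 or mouse 4. That of Cenpa was lost without mouse 2, 3, 4 or 5, and limma called neither, while DESeq2 called both. The 4 VAT ST2- libraries of under 220 cells are on 1 side of this comparison, and the part of cell number in it was not tested.

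Mki67 and Top2a were lower in VAT ST2+ Tregs in 5 of 5 mice without passing the test. Mki67 was read at 102, 0.579, 67.9, 42.4 and 109 CPM in ST2+ and 117, 107, 92.1, 125 and 147 CPM in ST2- Tregs (log2 fold change -0.87, SE 0.60, adjusted p = 0.483, edgeR). Top2a was read at 67.6, 41.7, 57, 55.6 and 172 and 223, 351, 119, 188 and 198 CPM (log2 fold change -1.46, SE 0.58, adjusted p = 0.149). Mouse 2 held the single low ST2+ value of Mki67, and mouse 5 the single high ST2+ value of Top2a.

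**Figure D4:**
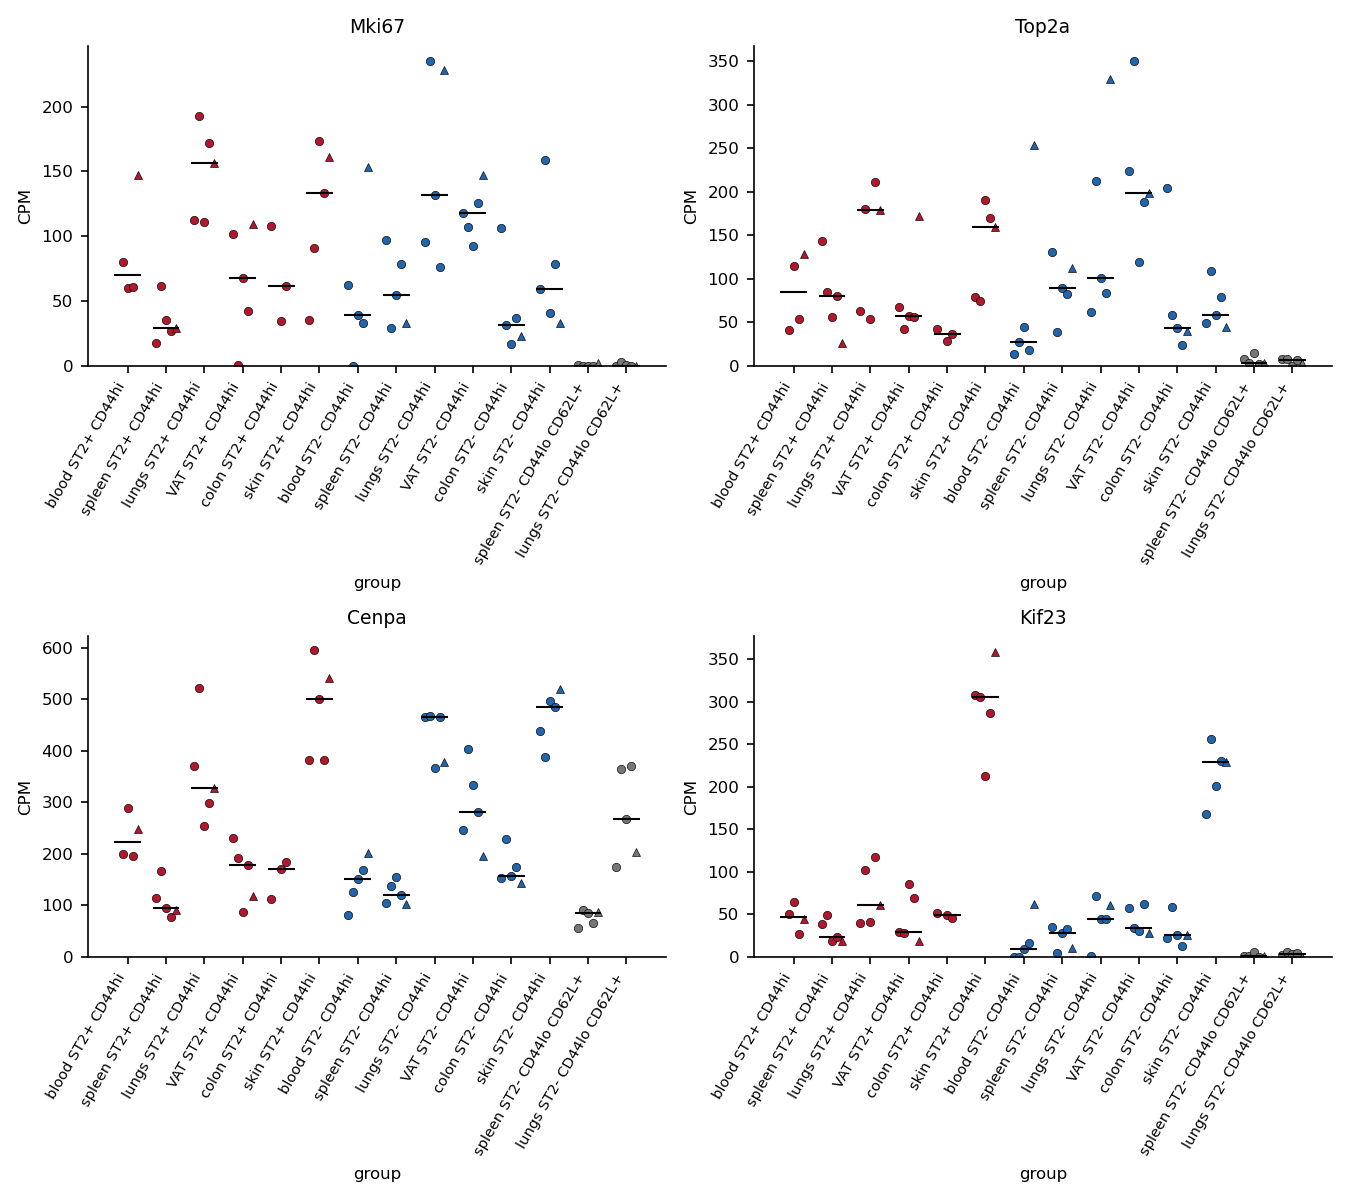
CPM of Mki67, Top2a, Cenpa and Kif23 in every kept library of the 14 groups (triangles, mouse 5; circles, the other mice; bars, group medians; red ST2+, blue ST2- CD44hi, grey CD44lo CD62L+). Kif23 lies at 168 to 359 CPM in skin and at no more than 118 CPM elsewhere, Cenpa stays at 175 to 370 CPM in lung CD44lo Tregs where Mki67 is at most 3.0 CPM, and Top2a lies at 41.7 to 172 CPM in VAT ST2+ and 119 to 351 CPM in VAT ST2- Tregs.

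Whether the ST2 difference varied over the 6 tissues was tested in 1 model. No member passed the F test over all tissues, where 1.4% of all tested genes did (edgeR, 3 members at an unadjusted p under 0.05, 1 member called by DESeq2, 1 with the mouse as a replicate block and 0 by limma). The ST2 difference in blood was compared with that of each other tissue, 5 comparisons in all. Against VAT it was above for Ndc80 by 2.33 on the log2 scale (SE 0.63, edgeR adjusted p = 0.0298) and for Cenpa by 1.54 (SE 0.33, adjusted p = 0.00422), where 1.42% of all tested genes had a blood difference above that of VAT. The mean of Cenpa was 233 CPM in ST2+ and 146 CPM in ST2- Tregs of blood, against 161 and 292 CPM in VAT. Limma called neither gene, and without mouse 3 edgeR called none.

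How the members vary over tissues was asked within each population. For ST2- Tregs 15 of 48 members differed over the 6 tissues, 11 of them replication genes and the others Cenpa, Kif23, Ndc80 and Top2a, where 43.3% of all tested genes differed. For ST2+ Tregs 5 of 48 differed, where 47.7% of all tested genes did: Cenpa, Kif23, Pcna, Ndc80 and Mki67. Of the replication genes in ST2- Tregs 61.1% differed, and of the mitosis genes 13.3%. Limma found 33 members in ST2- Tregs, without a share of all tested genes to set beside them. The counts without the blood libraries of mouse 5 are given further on. The median within-group SD of log2 CPM was 1.42 over the mitosis genes and 0.61 over the replication genes, against 0.455 over all tested genes, and 42 of the 48 members exceeded the last value.

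Of the members, Cenpa (adjusted p = 9.2e-12 in ST2+ and 2.45e-12 in ST2- Tregs, edgeR F test) and Kif23 (2.18e-05 and 1.49e-06) had the smallest p over tissues. Kif23 was read at 307, 306, 213, 286 and 359 CPM in skin ST2+ and 168, 256, 201, 230.5 and 229.5 CPM in skin ST2- Tregs, and at no more than 118 CPM in any library of another tissue. Every skin library was thus above every other library. Against blood, Kif23 and Cenpa were the mitosis genes called in skin in both populations when all libraries were used. Plk1, a mitotic kinase, was at a mean of 2.58 ± 2.37 CPM (SD, n = 5) in skin ST2- and 33.1 ± 26 CPM in lung ST2- Tregs. It did not pass the F test over tissues in ST2- Tregs (edgeR adjusted p = 0.174), and skin against lungs was not tested. Mitosis genes differed widely in this respect. Prc1, for one, was at 5.85 CPM per kilobase of exon in skin ST2- and 5.39 in lung ST2- Tregs. The exons of Kif23 and Cenpa overlap no other annotated gene. Transcripts of other cells were present: 5 epithelial genes summed to 74.2 to 1119.9 CPM and 4 stromal genes to 26.3 to 205 CPM in skin ST2- libraries, with Krt8 at 0 and the other 4 epithelial genes read. In skin ST2+ libraries they summed to 134 to 653 CPM and 2.13 to 63.1 CPM. Their part in the skin values was not tested.

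Cenpa was high in skin and also in lungs. It was read at 382, 595, 501, 383 and 541 CPM in skin ST2+, 371, 523, 253, 299 and 329 CPM in lung ST2+ and 466, 467, 367, 465 and 378 CPM in lung ST2- Tregs. In spleen it was read at 113, 166, 94.6, 76.5 and 91 CPM in ST2+ and 103, 138, 154, 119 and 103 CPM in ST2- Tregs. The lung ranges lay wholly above the spleen ranges. Central Tregs showed the same order, at 175, 365, 268, 370.2 and 204 CPM in lungs against 56.2, 91.3, 84.4, 64.6 and 87.7 CPM in spleen, in cells where Mki67 was nearly absent, and this last pair of groups was set side by side without a test.

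Blood was then set against each other tissue. These comparisons share the blood libraries, so their counts are given side by side and not added up. In ST2- Tregs every call was lower in blood. The counts were 1 of 48 against spleen (1.68% of all tested genes were lower in blood), 4 against lungs (2.51%), 8 against VAT (6.38%), 1 against colon (10.8%) and 7 against skin (16.6%). With the mouse as a replicate block they were 2 against spleen and 7 against lungs, by DESeq2 2 and 11, and by limma 5 and 17. The median log2 fold changes were -0.92, -1.56, -1.52, -0.25 and -0.38 in the same order, and -1.91, -2.53, -2.36, -1.06 and -1.44 without the blood libraries of mouse 5. Against VAT 2 or 3 members were called when any of mice 1 to 4 was left out and 20 without mouse 5. For the replicate block, DESeq2, limma and the mice left out, the share of all tested genes is not given. Those counts therefore do not set the members apart from other genes.

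Uhrf1 was the member called against 4 of the 5 tissues with all libraries, and against lungs alone without the blood libraries of mouse 5. It was read at 6.71, 0, 8.77, 0 and 1.77 CPM in blood ST2- Tregs, 93.9, 31.6, 63.9, 24.8 and 76.5 CPM in spleen and 23, 35.5, 16.5, 29.97 and 32.8 CPM in skin. No blood library reached those of spleen or skin (log2 fold change -4.01, SE 1.18, edgeR adjusted p = 0.0357 against spleen, and -2.93, SE 1.15, adjusted p = 0.043 against skin). Against VAT the calls were Uhrf1, Tk1, Nusap1, E2f1, Ccna2, Ccne2, Cenpa and Kif15. Ccna2 was read at 0.447, 18.9, 0, 1.03 and 20.7 CPM in blood and 146, 109, 120.3, 121 and 42.6 CPM in VAT (log2 fold change -3.75, SE 1.28, adjusted p = 0.0459). Against lungs they were Uhrf1, Mcm2, Mcm4 and Cenpa, and against colon Pcna alone.

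In ST2+ Tregs fewer members were called, and not all in 1 direction. The counts were 1 against spleen (4.35% of all tested genes in either direction), 0 against lungs (4.33%), 1 against VAT (10.8%), 0 against colon (10.4%) and 3 against skin (27.3%). At an unadjusted p under 0.05 edgeR counted 3 members (6.25%) against lungs and 4 (8.33%) against colon, where 20.4% and 26.2% of all tested genes were counted, and DESeq2 and limma each called 1 against lungs and 0 against colon. Cenpa was higher in blood than in spleen (log2 fold change 1.10, SE 0.24, adjusted p = 0.00195) and lower than in skin (log2 fold change -1.04, SE 0.24, adjusted p = 0.000499). Ccne1, cyclin E1, was higher in blood than in VAT, at 24.1 to 64.6 against 0 to 14.6 CPM (log2 fold change 3.59, SE 1.25, adjusted p = 0.049), and this call was lost without a filter on low counts and with median-of-ratios factors. Dut, which keeps uracil out of DNA, was higher and Kif23 lower in blood than in skin.

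The blood libraries of mouse 5 stood apart in the members. The mitosis genes summed to 265, 317, 378, 417 and 1758 CPM in the blood ST2- libraries of mice 1 to 5 and to 537, 860.0, 585 and 1803 CPM in the blood ST2+ libraries of mice 2 to 5. The replication genes were also high in the ST2+ library of mouse 5, at 3788 CPM against 769 to 1225 CPM, but not in its ST2- library, at 1271 CPM against 1042 to 1236 CPM. Erythroid transcripts were high in the blood libraries of mice 4 and 5, and their part in these sums was not tested. Over all its libraries the median mitosis sum of mouse 5 was 1264 CPM, against 709 to 1059 CPM in the other mice.

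Leaving out these 2 blood libraries was a choice made after their high member sums were seen. Lower member levels in blood follow in part from that choice, so the calls below are a description. Without the 2 libraries, blood differed from other tissues in more members. In ST2- Tregs 17 members were lower than in lungs (3.05% of all tested genes) and 23 lower than in VAT (6.72%), while 3 were lower than in spleen (2.01%), 5 lower than in colon (9.89%) and 11 lower than in skin (15.7%). Of the members called with all libraries, 7 of 8 against VAT, 3 of 4 against lungs, 6 of 7 against skin and 1 of 1 against colon were called again, and 0 of 1 against spleen. Top2a then had a log2 fold change of -3.05 (SE 0.60, edgeR adjusted p = 0.00018) and Cdk1 of -3.88 (SE 0.95, adjusted p = 0.00337) against VAT, and Mki67 of -2.17 (SE 0.65, adjusted p = 0.0417) against lungs. In ST2+ Tregs the counts became 5 against spleen (3.91% of all tested genes), 6 against lungs (3.58%), 6 against VAT (9.72%), 2 against colon (7.12%) and 11 against skin (24%), all lower in blood except Cenpa against spleen. Ccne1 against VAT and Dut against skin were no longer called, and Cenpa against spleen and Cenpa and Kif23 against skin were. Over the 6 tissues 27 members differed in ST2- Tregs (43.7% of all tested genes) and 14 in ST2+ Tregs (46.6%). Kif23 became higher in ST2+ than in ST2- Tregs of blood (log2 fold change 2.84, SE 0.76, adjusted p = 0.018, 3 ST2+ and 4 ST2- libraries), where 3.78% of all tested genes were called. Among these libraries, ST2+ of mice 2 and 3 and ST2- of mouse 1 held fewer cells than aimed for. The part of cell number was not tested.

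**Figure D5:**
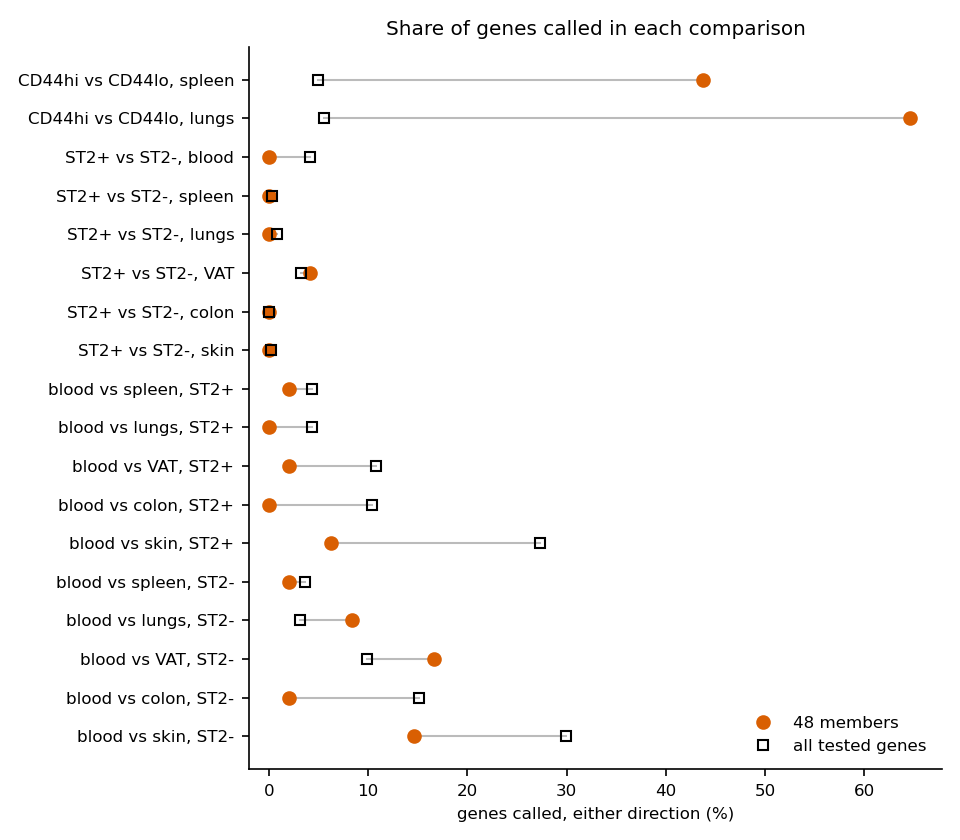
Percent of the 48 genes (filled circles) and of all tested genes (open squares) called in either direction in each comparison. The members exceed all genes in the CD44 comparisons of spleen and lungs and lie below them in the comparisons of blood with colon and skin. Among ST2- Tregs they lie above all genes in the comparisons of blood with lungs and VAT.

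Over the 14 groups the mitosis genes followed the mean of the other members more closely than the replication genes did. Pearson's r between a gene and the mean of the other members, over the 14 group means of log2 CPM, had a median of 0.902 over the mitosis genes (0.34 to 0.966) and 0.825 over the replication genes (-0.0302 to 0.949), highest for Ccna2, Aurkb and Tpx2. It was lowest for Ccne1, Mcm4, Mcm7 and Ndc80. The 14 means share mice and a scaling, so r is a description. The mean of the members holds more mitosis than replication genes, and likeness within each role was not computed. Per kilobase of exon, the levels in lung ST2- Tregs were led by Mcm6 at 88.4 and Mcm4 at 85.7 CPM per kb, ahead of Cenpa at 73.2 and Ccnb2 at 69.2 CPM per kb. In lung CD44lo Tregs Mcm4, Cenpa and Mcm6 led at 58.9, 47.2 and 46.8 CPM per kb.

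Values of members whose exons overlap another gene are less certain, because the strand setting of the counting was not given in the sources used here. The shared part of the exons was 29.3% in Kif20a (with Cdc23), 22.8% in Ube2c (Tnnc2), 17.4% in Ccne2 (Ints8), 12.6% in Mcm7, 12.5% in Ccna2 (Exosc9) and 11.1% in Prc1 (Rccd1). Mki67, Cdk1, Ccnb1, Birc5, Rrm2, Tyms and Ndc80 share no exon base with another gene.

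Cdkn1a, which encodes the CDK inhibitor p21 and is no member, was lower in blood than in lungs, VAT, colon and skin in both populations. Its mean was 1.14 ± 1.48 CPM (SD, n = 5) in blood ST2- and 405 ± 41.6 CPM in skin ST2- Tregs (log2 fold change -8.49, SE 0.71, edgeR adjusted p = 2.99e-15), and 20.5 CPM in blood ST2+ and 389 CPM in skin ST2+ Tregs. In lungs, VAT and colon its means were 39.8, 85.6 and 144 CPM in ST2- and 115, 257 and 161 CPM in ST2+ Tregs. The part of tissue digestion in these differences was not tested.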

How the data were processed

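RNA of 70 sorted Treg libraries was amplified with SMART-Seq v4 and made into Nextera XT libraries. The authors deposited raw counts per Ensembl gene, and no scaling had been applied. The tools named in their processing notes include CASAVA 1.8.2, STAR, Picard and HTSeq 0.4.1, with build GRCm38. The strand setting was not given in the sources used here.

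Libraries under 1000000 counts (3) were left out, after the study's methods. Tests covered the 13173 protein-coding genes that reached 1 CPM in 10% or more of the 67 remaining libraries, all 48 members among them. The main test was edgeR 4.0.16 (R 4.3.3) with TMM factors, 1 mean per group and the quasi-likelihood F test over all genes, Benjamini-Hochberg adjusted. Calls needed an adjusted p of at most 0.05 and a fold change of 1.5, and F tests over several groups the adjusted p alone. Levels are CPM, counts per 1000000 on TMM-scaled library sizes. Alternatives were DESeq2 1.42.0, limma 3.58.1 (voom with quality weights), median-of-ratios factors, no filter on low counts (18536 genes), the mouse as replicate block and each mouse left out. The code was tested on simulated data. Intervals of 95% cover counting error only.

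Libraries with 1 number come from the same mouse. Over 7993 genes their deviations from the group means correlated at a mean r of 0.0480 (416 pairs, 74 over 0.1), against -0.0113 between mice (1666 pairs). Within a group the libraries come from separate mice, while groups share the mice, a pairing that the main test did not use.

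Values in each library are given for 12 members set by the plan (Mki67, Top2a, Ccna2, Cdk1, Ccnb1, Birc5, Rrm2, Tyms, Mcm2, Mcm5, Pcna and Stmn1), and for called members, up to 8 with the largest fold change in each direction of a comparison. From the other lists up to 4 examples with the smallest adjusted p were named. The members and lists were chosen with earlier results of these data known. A few marker and list genes are not reported here.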

Additional observations from a re-analysis of the deposited data

Results flagged for a closer look

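Single libraries far from the others of their group were sought for the 12 members named by the plan and for the replication and mitosis sums, in 182 pairs of measure and group, and 15 stood out by Dixon's test. Chance alone marks about 1 in 20 groups. All values are CPM.

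Low values were most common in CD44hi groups. In VAT ST2+ Tregs mouse 2 had 0.579 of Mki67 (others 42.4 to 109) and 0 of Birc5 (others 30.5 to 89.2). In skin ST2+ Tregs mouse 1 had 17.9 of Cdk1 (others 45.2 to 55.5) and 0 of Birc5 (others 23.9 to 63.5). Ccna2 was 0 in the spleen ST2- library of mouse 2 (others 30.1 to 104) and 42.6 in the VAT ST2- library of mouse 5 (others 109 to 146). Birc5 was 26.6 in the lung ST2- library of mouse 4 (others 75.5 to 96.0), and Pcna was 77.3 in the VAT ST2- library of mouse 1 (others 116 to 123).

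High values came from blood, central Tregs and spleen. In blood mouse 5 had 60.4 of Ccna2 in ST2+ (others at most 0.547), 82.8 of Birc5 in ST2- (others 4.87 to 11.6) and a mitosis sum of 1758 in ST2- Tregs (others 265 to 417). In CD44lo Tregs Mki67 was 1.96 in the spleen library of mouse 5 (others at most 0.363) and 3.0 in the lung library of mouse 2 (others at most 0.467), and Ccna2 was 0.544 in the lung library of mouse 4 (others 0). The replication sum was 2469 in the spleen ST2+ library of mouse 1 (others 1213 to 1418).

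The ST2 difference in blood exceeded that in VAT for Ndc80 by 2.33 and for Cenpa by 1.54 on the log2 scale (edgeR adjusted p = 0.0298 and 0.00422). Neither gene passed the edgeR F test over all tissues (adjusted p = 0.164 and 0.0699), and limma called neither. Without mouse 3 edgeR called none.

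The 3 libraries left out for depth also held member counts. The blood ST2+ library of mouse 1 had 754 counts in 14 members (1543 CPM of 488666 counts). The colon ST2+ libraries of mice 2 and 5 had 8 counts in 6 members (2233 CPM of 3582 counts) and 79 counts in 26 members (1267 CPM of 62333 counts).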

How the results depend on the processing

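Counts in this section are of members only, without the share of all tested genes called in the same setting. They do not set the members apart from other genes. No recomputed fold change of a member between CD44hi and CD44lo Tregs changed sign in any setting run. Limma called 35 members higher in spleen (21 by edgeR), and the other tools and scalings stayed within 1.5 times of the counts given. Leaving out 1 mouse gave 16 to 19 calls in spleen and 22 to 28 in lungs, and leaving out the blood libraries of mouse 5 gave 23 and 32.

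Leaving out any 1 mouse gave 0 calls, as with all mice, in the ST2 comparisons of spleen, lungs, colon and skin, for the ST2 difference of blood against those 4 tissues and for its variation over tissues. Elsewhere the counts moved. Leaving out 1 mouse gave 0 to 1 calls in the ST2 comparison of blood and 0 to 2 in that of VAT. For blood ST2+ Tregs it gave 0 to 5 calls against spleen, 0 to 6 against lungs, 0 to 4 against VAT, 0 to 3 against colon and 2 to 9 against skin. For blood ST2- Tregs it gave 0 to 2 against spleen, 2 to 8 against lungs, 2 to 20 against VAT, 0 to 9 against colon and 3 to 14 against skin. The highest count in each of these 10 came without mouse 5. It gave 0 to 3 members whose ST2 difference in blood differed from that in VAT, 2 to 8 that differed over tissues in ST2+ and 5 to 18 in ST2- Tregs. The log2 fold change of Mki67 between ST2+ and ST2- Tregs of lungs, near 0, lay between -0.267 and 0.127 when 1 mouse was left out, and turned positive without mouse 2 (0.0478) or mouse 5 (0.127).

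Without the blood libraries of mouse 5 alone, a setting added after seeing the data, the ST2 comparison of blood gave 1 call and the ST2 difference of blood against VAT 4. Blood ST2+ Tregs gave 5, 6, 6, 2 and 11 calls against spleen, lungs, VAT, colon and skin, and blood ST2- Tregs 3, 17, 23, 5 and 11. The tests over tissues gave 14 in ST2+ and 27 in ST2- Tregs.

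Limma gave 0 calls in the ST2 comparison of VAT, 0 for the ST2 difference of blood against VAT and 33 over tissues in ST2- Tregs. It gave 1 call against lungs and 6 against skin for blood ST2+, and 5 against spleen and 17 against lungs for blood ST2- Tregs. DESeq2 gave 1 and 2 calls against lungs and VAT for blood ST2+ and 2 and 11 against spleen and lungs for blood ST2- Tregs, and 1 member whose ST2 difference varied over tissues. For blood against VAT in ST2+ Tregs, median-of-ratios factors and no filter each gave 0 calls, and for ST2- Tregs no filter gave 5. The mouse as a replicate block gave 2 calls for blood against spleen and 7 against lungs in ST2- Tregs and 1 member whose ST2 difference varied over tissues, and it moved no other count by over 1.5 times. The causes of these changes were not tested. Median-of-ratios factors moved the median of all genes by at most 0.0605 on the log2 scale.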

Other observations

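Tested genes outside the 48 whose pattern over the 14 group means of log2 CPM was most like the mean of the members were other cell cycle genes. Pearson's r was 0.983 for Pclaf, which binds PCNA, 0.960 for Esco2, which acetylates cohesin, 0.953 for the checkpoint gene Clspn and 0.947 for the kinetochore gene Spc24. It was 0.936 to 0.946 for Kif18b, Cdca8, Cdca5, Ska3 and Cdca3. Pclaf was at a mean of 54.9 CPM in lung ST2- CD44hi, 0.109 CPM in lung CD44lo and 60.3 CPM in VAT ST2- Tregs. These values are descriptions over group means that share mice.

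Among 23 genes that hold back the cell cycle, Cdkn2c, an inhibitor of CDK4 and CDK6, was higher in CD44hi than in CD44lo CD62L+ Tregs of spleen, at 36.4 ± 16.8 against 2.57 ± 3.74 CPM (SD, n = 5, log2 fold change 3.77, SE 0.62, edgeR adjusted p = 9.48e-06), and of lungs, at 33.0 ± 11.0 against 4.16 ± 2.66 CPM (log2 fold change 2.96, SE 0.60, adjusted p = 0.000341). Klf2, Foxo1 and Cdkn2d were lower in CD44hi Tregs of spleen, by 0.93, 0.68 and 0.69 on the log2 scale (adjusted p = 6.35e-05, 0.000276 and 0.00181). In lungs Rbl2 and Cdkn1a were the other 2 brakes called, both higher in CD44hi Tregs.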
